A study of Mus musculus with 6 samples.

Results

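Ccl2, Ccl7, Ccl8 and Ccl12 encode 4 closely related CC chemokines of the monocyte chemoattractant protein group, and Ccr2 encodes the receptor through which this group is best known to act. The 5 genes were chosen by symbol: every transcript cluster (the probe group of a gene on the array) that carried 1 of these symbols was taken. Each gene had 1 cluster with no other symbol on it, so all 5 were measured, among 29458 genes in all. No filter on low signal was used.

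The chemokines of this group are small secreted proteins that draw CCR2-bearing cells along their gradient. CCR2 is a G protein-coupled receptor at the surface of classical (Ly6C-high) monocytes, which use it to leave the bone marrow and to enter inflamed tissue, while resting microglia carry little of it. In injured brain, microglia, astrocytes, endothelial cells and macrophages are known sources of the ligands. Mouse CCL8 is unusual among them, since it has been described mainly as a ligand of CCR8.

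Ribosome-bound mRNA was hybridised to MoGene-2_0-st arrays, 3 per group. The stroke group was sampled 24 h after tMCAO, a transient occlusion of the middle cerebral artery that is then reopened; the control group was sham-operated. Mice of both groups were CD11brGFP transgenics aged 2 to 3 months, in which the ribosomal protein RPL10a carries Flag and EGFP tags. The CD11b promoter drives this transgene in microglia, and is known to be active in monocytes, macrophages and neutrophils as well. Tagged ribosomes and their mRNA were isolated by the TRAP method (translating ribosome affinity purification). The labels count 6 mice and 3 biological replicates for each group but do not assign mice to arrays, and on sex they conflict, giving only males in one field and equal numbers of males and females in another. P-values measure the spread between these arrays.

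The median of all clusters lay at 5.26, 5.3 and 5.23 in stroke arrays and between 5.28 and 5.35 in control arrays on the log2 scale, without detection calls. Whether a low signal exceeded background is thus not known, and precision is limited by the number of arrays. In both groups the array numbered 2 lay away from the other 4 on the first principal component, at 34.6 in stroke and 48.9 in control, against -14.4 to -26.6. Results for the members were computed with and without them. Itgam, the gene of CD11b, had a signal of 7.01 ± 0.07 in stroke and 6.17 ± 0.40 in control (log2, SD, n = 3 each; limma adjusted p = 0.276). Mean signal over the 13 homeostatic microglia markers was 7.03 to 7.22 in stroke and 6.68 to 7.03 in control. It was 10.79 to 10.94 in stroke and 10.82 to 11.03 in control for 7 neuron markers, so transcripts of other cells were present in both groups, and no change is placed here in a cell type.

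Of the 4 ligand genes, Ccl12, Ccl2 and Ccl7 were higher in stroke, Ccl8 was level, and Ccr2 was slightly higher without passing the threshold. By limma with Benjamini-Hochberg adjustment over all genes, 3 of 5 members rose at an adjusted p under 0.05 and 0 fell. Over all genes tested, 0.424% passed, of which nearly all were higher in stroke: 0.421% rose and 0.00339% fell. In this ribosome-bound mRNA, more cells of a type, more RNA per cell and a larger ribosome-bound share of it cannot be told apart.

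Ccl12 encodes MCP-5, a CCR2 ligand found in rodents. Its log2 signal was 7.34, 7.71 and 7.21 in stroke replicates 1 to 3, against 4.13, 4.33 and 4.21 in the controls. The groups lay far apart: the lowest stroke array was 2.87 above the highest control array, while the widest range within a group was 0.50. The difference was 3.19 on the log2 scale, with a 95% confidence interval of 2.82 to 3.57 from the moderated fit, which is 9.15-fold (limma adjusted p = 0.000614). The control signal was as low as that of Ccl8 and is not shown to be above background, so the fold holds for the signal as measured, and so do comparisons of this change with those of other genes. It ranked 2 of 29458 genes by p and 5 by size of rise.

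Ccl2 encodes MCP-1, the best-studied CCR2 ligand. Its signal was 8.82, 8.0 and 8.32 in the stroke arrays, against 5.47, 5.32 and 5.48 in the control arrays. The control arrays were close to one another, within 0.16, whereas the stroke arrays spread over 0.81 with replicate 1 highest. The difference was 2.96, with a 95% interval of 2.48 to 3.44 (7.77-fold; limma adjusted p = 0.00294).

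Ccl7 encodes MCP-3, which also binds CCR1 and CCR3. Its signal was 7.87, 7.81 and 7.39 in stroke arrays, against 5.52, 6.15 and 5.34 in control arrays. Control replicate 2, one of the 2 arrays that stood apart, was the highest control, and still 1.24 below the lowest stroke array. The difference was 2.02, with a 95% interval of 1.48 to 2.56 (4.05-fold; limma adjusted p = 0.0167). This call was lost when stroke replicate 1, stroke replicate 2, control replicate 1 or control replicate 3 was left out, with limma adjusted p-values of 0.0903, 0.059, 0.110 and 0.0654. The difference in those fits was 1.86 to 1.96.

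Ccl8 encodes MCP-2. Its signal was 4.55, 4.31 and 4.34 in stroke arrays, against 4.33, 4.22 and 4.59 in control arrays, so the stroke arrays lay within the range of the controls and every array lay below the median of all clusters. The difference was 0.02, with a 95% interval of -0.33 to 0.37, or 0.797-fold to 1.29-fold (limma adjusted p = 0.9998). The interval leaves room for a change of up to that size in either direction in the signal as measured. That signal is not shown to be above background, so the interval does not bound a change of the mRNA.

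**Figure D1:**
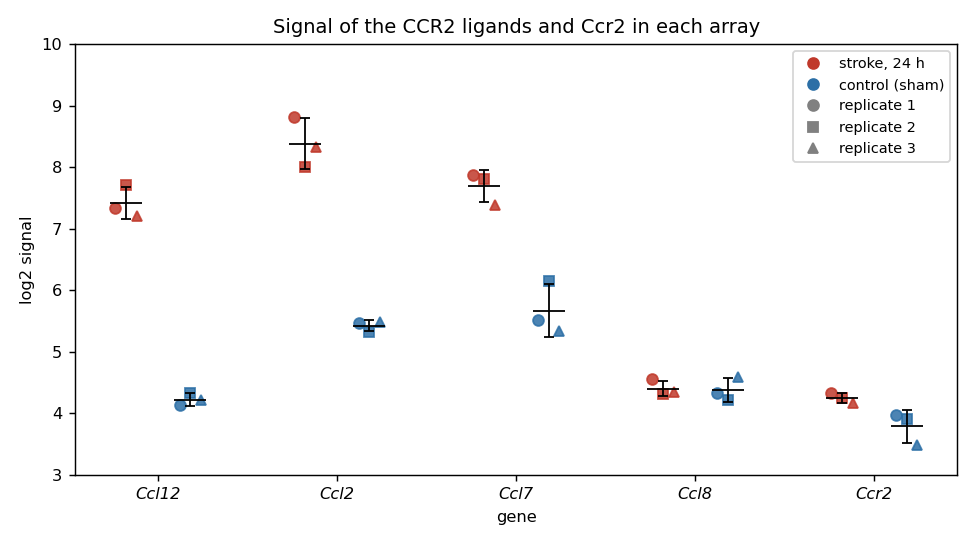
Log2 signal of each gene in the 3 stroke arrays (red, left of each pair) and the 3 control arrays (blue, right); marker shapes give the replicate number, and black bars the mean and SD. For Ccl12, Ccl2 and Ccl7 all stroke arrays lie above 7.2 and all control arrays below 6.2, while Ccl8 overlaps and Ccr2 is separated by 0.19.

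The deposited comparison held the same order. In the authors' deposited table the fold change of stroke over control was 8.83 for Ccl12, 7.41 for Ccl2, 5.01 for Ccl7 and -1.02 for Ccl8, where a negative value stands for the inverse fold in the other direction. The false discovery rates in the authors' deposited table were 9e-04, 0.004, 0.0219 and 0.9998 for these genes. Of the 29458 genes, 0.336% were higher in stroke at a rate under 0.05 in that table.

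Among the 3 ligands that rose, the sizes of the rise were compared, but with 3 against 3 arrays no pair could pass the test. The change of Ccl12 exceeded that of Ccl7 by 1.17 ± 0.24 on the log2 scale (SE, n = 3 arrays each), and that of Ccl2 exceeded it by 0.94 ± 0.39. For Ccl12 against Ccl2 the excess was 0.24 ± 0.36, less than its error. These 6 pairwise comparisons of ligands were added after the values were seen. The exact two-sided permutation p was 0.1 for each pair except Ccl12 and Ccl2, where it was 0.7, and 0.1 is the smallest p that 3 against 3 arrays allow; adjusted over the 6 pairs, the values were 0.12 and 0.7. In the signal as measured, Ccl8 changed less than Ccl12, Ccl2 and Ccl7 by 3.17 ± 0.24, 2.94 ± 0.18 and 2.00 ± 0.37. The arrays that were highest also differed by gene: stroke replicate 1 led for Ccl2 and Ccl7, and stroke replicate 2 for Ccl12.

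Stroke minus control was also taken within each replicate number. For Ccl12 the differences were 3.21, 3.37 and 3.00 for numbers 1, 2 and 3. For Ccl2 they were 3.35, 2.68 and 2.84. For Ccl7 they were 2.35, 1.66 and 2.05. Number 2, whose arrays stood apart, gave the largest difference for Ccl12 and the smallest for Ccl2 and Ccl7. For Ccl8 the values were 0.22, 0.10 and -0.25, with no common sign. For Ccr2 they were 0.35, 0.33 and 0.68, all positive.

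All 4 ligand genes lie in 1 cluster on chromosome 11 of GRCm38.p6, from 82035577 to 82116799, a span of 81.2 kb, in the order Ccl2, Ccl7, Ccl11, Ccl12, Ccl8, with Ccl1 after them. Ccl8 (82115185 to 82116799) starts 11785 bases after the end of Ccl12 (82101845 to 82103399). Ccl2 spans 82035577 to 82037452 and Ccl7 spans 82045712 to 82047525. Between Ccl7 and Ccl12 lies Ccl11, which encodes eotaxin-1, a CCR3 ligand that attracts eosinophils. Its signal was 6.71 ± 0.12 in stroke and 5.49 ± 0.03 in control (SD, n = 3 each), a rise of 1.22 (limma adjusted p = 0.0115). The Ccl11 call did not hold without stroke replicate 1, stroke replicate 3, control replicate 1 or control replicate 3, where the adjusted p reached 0.0813. Ccl1, which encodes a CCR8 ligand and lies beyond Ccl8, was at 4.5 ± 0.14 in stroke and 4.84 ± 0.19 in control (adjusted p = 0.902). The 4 genes at the Ccl2 end of the cluster thus passed the threshold, and the 2 at the Ccl1 end did not. The probes of these related genes may in part bind one another's transcripts.

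**Figure D2:**
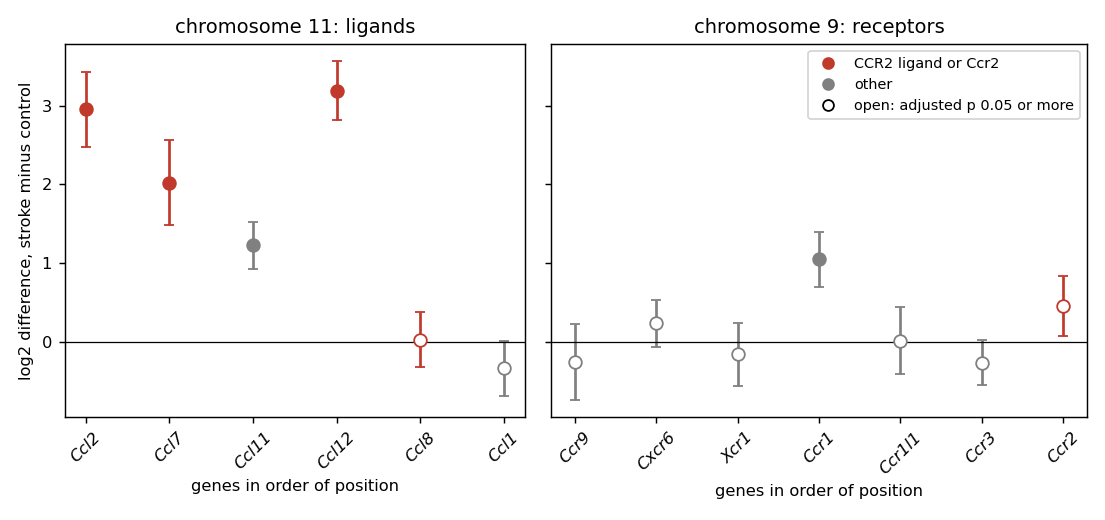
Log2 difference of stroke minus control, with 95% confidence intervals from the limma fit, for the CC chemokine genes around the ligands (left) and 7 chemokine receptor genes within 500 kb, Ccr2 included (right), in order of position and not to scale; filled points passed an adjusted p of 0.05. Ccl2, Ccl7, Ccl11 and Ccl12 lie between 1.22 and 3.19, Ccl8 and Ccl1 at 0.02 and -0.34, and among the receptors shown only Ccr1 passed.

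The promoters of the neighbours Ccl12 and Ccl8 are shown because these genes lie side by side and differed most among the ligands. Of the 5 members, Ccl12, Ccl8 and Ccr2 were matched in the RefSeq promoter table (GRCm38.p6). The Ccr2 window lies inside the annotated span of the gene, so it is not printed and serves only for comparison in the alignment. The 250 bases before each start are given 5′ to 3′ on the plus strand, chr11:82101595-82101844 for Ccl12 and chr11:82114935-82115184 for Ccl8. Capitals mark the TATA box letters TATAAA and the PU.1 core letters GAGGAA, searched on both strands.
Ccl12: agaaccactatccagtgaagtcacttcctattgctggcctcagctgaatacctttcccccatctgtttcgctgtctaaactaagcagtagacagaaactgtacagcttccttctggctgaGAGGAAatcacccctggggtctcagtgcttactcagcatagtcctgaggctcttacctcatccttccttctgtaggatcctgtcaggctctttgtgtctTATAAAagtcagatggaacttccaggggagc
Ccl8: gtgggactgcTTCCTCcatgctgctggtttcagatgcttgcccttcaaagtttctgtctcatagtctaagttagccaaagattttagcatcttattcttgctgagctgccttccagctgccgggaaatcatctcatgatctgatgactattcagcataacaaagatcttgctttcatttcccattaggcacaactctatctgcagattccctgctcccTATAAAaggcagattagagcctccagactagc
Both windows held TATAAA, ending 26 bases before the start in Ccl12 and 27 in Ccl8, against 12.4% of 32851 promoter windows of this length in the table. Both also held GAGGAA, on the gene's strand in Ccl12 and on the opposite strand in Ccl8, as did 23.3% of all windows. Neither window held the AP-1 letters TGANTCA, the GAS letters TTCNNNGAA, the GC box GGGCGG or the NF-kB consensus motif, each searched on both strands and found in 6.75%, 7.02%, 32.7% and 7.25% of all windows. In a global alignment, 150 of 230 aligned bases (65.2%) were identical between Ccl12 and Ccl8, with 40 gap positions. Against the Ccr2 window, on chromosome 9, the same alignment gave 59.5% for Ccl12 and 58.7% for Ccl8, with 70 and 64 gap positions. Whether 65.2% exceeds what unrelated windows give was not tested. A match of letters describes the sequence, and its absence concerns this window alone.

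The receptor gene Ccr2 had low signal in all arrays, not shown to be above background. It was 4.32, 4.24 and 4.16 in stroke arrays, against 3.98, 3.91 and 3.48 in control arrays, below each array's median of all clusters. Every stroke array lay above every control array, but the gap was 0.19, smaller than the range of 0.49 within the controls, of which replicate 3 was lowest. The difference was 0.45, with a 95% interval of 0.07 to 0.83, or 1.05-fold to 1.78-fold; the unadjusted p was 0.025 and the limma adjusted p was 0.722. With the replicate number as a block, they were 0.0096 and 0.276. Groups that did not overlap were found with stroke higher for 6.34% of all genes and with stroke lower for 4.89%. Among the members stroke was higher without overlap for Ccl12, Ccl2, Ccl7 and Ccr2. In the authors' deposited table the fold of Ccr2 was 1.23 with a false discovery rate of 0.776.

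Ligands and receptor were set against each other by subtracting the Ccr2 signal from that of each ligand within an array, which compares their changes and not their levels. The change of Ccl12 exceeded that of Ccr2 by 2.74 ± 0.22 on the log2 scale (SE, n = 3 arrays each), that of Ccl2 by 2.51 ± 0.28 and that of Ccl7 by 1.57 ± 0.23. The change of Ccl8 was 0.43 ± 0.26 below that of Ccr2. The signals of Ccr2 and Ccl8 were low and are not shown to be above background, so these differences hold for the signals as measured. In all 4 cases the 3 stroke values lay on one side of the 3 control values, with an exact two-sided permutation p of 0.1, the smallest this design allows, before and after adjustment over the 4 comparisons.

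Ccr2 (124101918 to 124109140 on chromosome 9) lies among other chemokine receptor genes. Ccr1, a receptor of CCL3, CCL5, CCL7 and other ligands on monocytes and neutrophils, had a signal of 4.94 ± 0.16 in stroke and 3.90 ± 0.17 in control and rose by 1.05 (limma adjusted p = 0.0372). The Ccr1 call was lost whichever of the 6 arrays was left out, with an adjusted p of up to 0.20, and the adjusted p was 0.162 without both arrays numbered 2. The eosinophil receptor gene Ccr3 was at 2.44 ± 0.07 in stroke and 2.70 ± 0.08 in control (adjusted p = 0.927). The receptor genes Ccr1l1, Ccr9, Cxcr6 and Xcr1, also within 500 kb, differed by 0.01, -0.26, 0.23 and -0.16 and did not pass.

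Among 15 measured CC chemokine ligands outside the CCR2 group (of 17 listed), 4 rose and 0 fell, with a median difference of 0.11 against -0.01 over all genes. For the 4 CCR2 ligands the median was 2.49. Ccl3, a ligand of CCR1, had the largest rise of the list, with a signal of 9.60 ± 0.13 in stroke and 5.60 ± 0.26 in control (difference 4.0; limma adjusted p = 0.00025). Ccl9, a CCR1 ligand of the mouse, rose by 2.71 (adjusted p = 0.00792), and Ccl6, a further CCR1 ligand of the mouse, by 1.57 (adjusted p = 0.0492). Ccl6 passed in 1 of the 6 fits that left out an array, the one without stroke replicate 2, and its adjusted p was 0.0576 without both arrays numbered 2. With Ccl11, these were the 4 that rose. Of 14 measured CC and atypical chemokine receptors besides Ccr2 (of 15 listed), Ccr1 alone rose and 13 did not pass, with a median of 0.05.

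Downstream of the receptor, 0 of 19 genes of CCR2 signalling (G protein subunits, arrestins, receptor kinases, phosphoinositide 3-kinase gamma and others) passed in the limma fit, with a median of 0.10. At an unadjusted p under 0.05 there were 4 of the 19, all with every stroke array above every control array, against 1697 of 29458 genes (5.76%). These 4, which lie outside the naming rule and were chosen after their values were seen, were Stat3, a transcription factor gene, Rac2, a small GTPase gene of blood cells, Pik3r5, a regulatory subunit of phosphoinositide 3-kinase gamma, and Plcb3, a phospholipase C. Their differences were 1.02, 0.97, 0.82 and 0.46 (limma adjusted p = 0.0519, 0.133, 0.120 and 0.606). The brightest genes of the list were Gnb1, a G protein beta subunit, at 12.87 ± 0.07 in stroke and 12.88 ± 0.05 in control, and Adrbk1 (now Grk2), a kinase that desensitises receptors, at 10.95 ± 0.09 in stroke and 11.13 ± 0.16 in control.

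Upstream, 5 of 18 genes known to induce Ccl2 or to carry such signals rose, 0 fell and 13 did not pass, with a median of 0.58. At an unadjusted limma p under 0.05 there were 11 of the 18, against 5.76% of all genes. All stroke arrays lay above all control arrays in 11 of the 18 and below in 0, against 6.34% and 4.89% of all genes. Tnf, an inducer of Ccl2, was at 7.27 ± 0.49 in stroke and 5.22 ± 0.15 in control (difference 2.05; limma adjusted p = 0.0173). Its receptor gene Tnfrsf1a rose by 1.58 (adjusted p = 0.00509), the interleukin 1 receptor gene Il1r1 by 1.49 (adjusted p = 0.0274) and Il6 by 1.54 (adjusted p = 0.0362). Tnfrsf1a passed without each array in turn. With 1 array left out, Tnf passed only without a replicate 2, and Il6 and Il1r1 only without stroke replicate 2. Their adjusted p-values in the fits without 1 array were up to 0.0846, 0.188 and 0.144. Without both arrays numbered 2, Tnf, Il6 and Il1r1 passed, with limma adjusted p-values of 0.00995, 0.0327 and 0.0345. The last of the 5 was Myd88, an adaptor of the interleukin 1 and Toll-like receptors, which lies outside the naming rule and was chosen after its value was seen. It rose by 1.11 (adjusted p = 0.0387) and did not pass in any fit without 1 array or without both arrays numbered 2, at up to 0.197. Of 11 genes that act on chemokine mRNA or trim the proteins, 2 rose and 9 did not pass (median 0.33). Zfp36, whose product tristetraprolin destabilises mRNAs of cytokines, rose by 2.12 (adjusted p = 0.00947, lost without stroke replicate 1 or 3 at up to 0.0624). Mmp3, a metalloproteinase that can cleave these chemokines, rose by 1.81 (adjusted p = 0.00376) and passed without each array in turn.

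**Figure D3:**
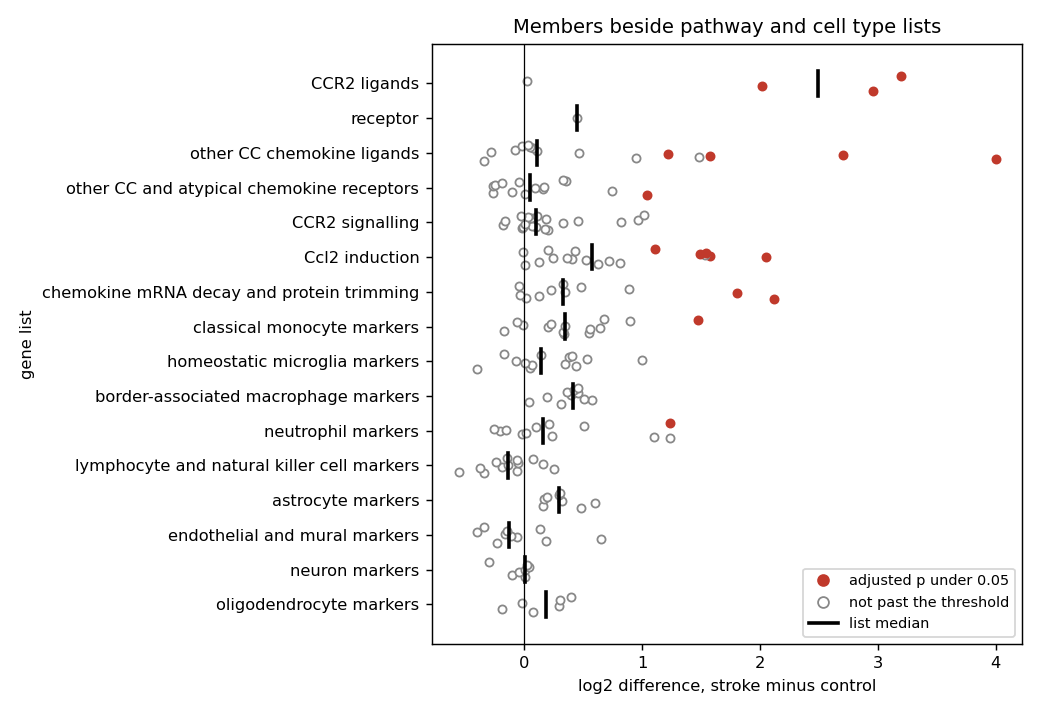
Log2 difference of stroke minus control for every measured gene of each list, 1 point per gene, with the list median as a black bar; red points passed an adjusted p of 0.05. Ccl12, Ccl2 and Ccl7 lie at 2.02 to 3.19, most genes of the other lists between -0.5 and 1, and the marker lists hold 2 genes past the threshold, Cd44 and Stfa2l1.

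Marker lists of cells that could contribute ligand or receptor RNA were read in the same arrays. Of 14 markers of classical monocytes, the cells best known for CCR2, 1 rose and 13 did not pass (median 0.34). In 6 of the 14 all stroke arrays lay above all control arrays and in 0 below, against 6.34% and 4.89% of all genes. The mean signal of the list was 5.52 to 5.73 in stroke and 5.19 to 5.25 in control. The gene that rose was Cd44, a hyaluronan receptor that many other cells also express, by 1.47 (limma adjusted p = 0.0127; lost without stroke replicate 1 or 3, at up to 0.0783, and at 0.0654 without both arrays numbered 2). Ly6c2, the gene of the defining surface marker, was at 4.16 ± 0.27 in stroke and 3.82 ± 0.03 in control (adjusted p = 0.939); it lies outside the naming rule and was chosen after its value was seen. Of 12 neutrophil markers 1 rose, the stefin gene Stfa2l1, by 1.24 (adjusted p = 0.0496, past the threshold with 1 array left out only without control replicate 2, and up to 0.25 otherwise), and 11 did not pass. The signal of Stfa2l1 was low, at 3.86 ± 0.21 in stroke and 2.62 ± 0.31 in control, and is not shown to be above background. In 3 of the 12 all stroke arrays lay above all control arrays, and in 1 below. Besides Stfa2l1 the 3 were S100a8 and S100a9, alarmin genes abundant in neutrophils and monocytes, with differences of 1.24 and 1.10 (adjusted p = 0.111 and 0.257); the 1 below was the elastase gene Elane, at -0.26 (adjusted p = 0.988). S100a8, S100a9 and Elane lie outside the naming rule and were chosen after their values were seen. The mean signal of the list was 4.80 to 4.84 in stroke and 4.38 to 4.60 in control.

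For 10 markers of border-associated macrophages, 0 passed, while in 7 of the 10 all stroke arrays lay above all control arrays (6.34% of all genes), with a mean signal of 5.45 to 5.55 in stroke and 5.12 to 5.16 in control. The brightest were Lyve1, at 7.03 ± 0.14 in stroke and 6.46 ± 0.19 in control, and Cbr2, at 6.70 ± 0.17 in stroke and 6.30 ± 0.19 in control (limma adjusted p = 0.364 and 0.787). Among 13 microglia markers 0 passed, and P2ry12, a purinergic receptor gene of resting microglia, was at 7.74 ± 0.08 in stroke and 8.13 ± 0.21 in control (adjusted p = 0.757). Mean signal of 8 astrocyte markers was 9.12 to 9.25 in stroke and 8.77 to 8.99 in control. That of 10 endothelial and mural markers was 6.22 to 6.92 in stroke and 6.40 to 6.85 in control, with 0 of either list past the threshold. All stroke arrays lay above all control arrays for 3 of the astrocyte markers and below for 0. None of the 13 lymphocyte and natural killer cell, 7 neuron or 6 oligodendrocyte markers passed, with medians of -0.14, 0.00 and 0.18. In 4 of the 13 lymphocyte and natural killer cell markers all stroke arrays lay below all control arrays, and in 0 above (4.89% and 6.34% of all genes). The microglia markers held 2 above and 2 below, and the oligodendrocyte markers 1 above and 0 below. The neuron list and the endothelial and mural list held 0 of either. The medians of the 9 marker lists ran from -0.14 to 0.41. Highest were those of the border-associated macrophages, 0.41, the monocytes, 0.34, and the astrocytes, 0.30. A median over a list is not comparable with the change of a single gene, so these values are not set against those of the members. The part of these cells in the ligand and receptor results was not tested.

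Genes with the most similar pattern were found for the 3 members that passed, as those with the smallest root mean square difference over the 6 arrays after centring each gene on its own mean, among 17987 named genes. For Ccl12 these were Timp1, an inhibitor of metalloproteinases, at 0.22, Ms4a6d, a membrane protein of the MS4A family, at 0.23, and Serpina3n, a secreted protease inhibitor, at 0.27. For Ccl2 they were Timp1 at 0.22, the transglutaminase gene Tgm1 at 0.24 and Lcn2, which encodes a siderophore-binding lipocalin, at 0.37. For Ccl7 they were Emp1, an epithelial membrane protein gene, at 0.19, the NF-kB partner gene Bcl3 at 0.205 and the heat shock gene Hspa1a at 0.22. Their log2 differences lay between 1.98 and 3.29 and all 8 genes passed the threshold; Hspa1a alone lost it in single leave-one-out fits, without stroke replicate 1, control replicate 1 or control replicate 3, at up to 0.0824. Ccl12 and Ccl2 differed from each other by 0.38, and from Ccl7 by 0.63 and 0.61. Within 0.25 of Ccr2 and Ccl8 lay 2678 and 10832 genes, so none is named for them. Over 6 arrays in 2 groups, genes whose group difference is of similar size lie close by this measure.

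The ligand results were repeated with each array left out. Over all genes the share that rose was 0.0951%, 0.214% and 0.0984% without stroke replicate 1, 2 or 3, and 0.0849%, 0.248% and 0.136% without control replicate 1, 2 or 3. It was 0.238% without both arrays numbered 2. The difference of Ccl12 lay between 3.05 and 3.30 and that of Ccl2 between 2.74 and 3.15, and both passed in all 6 fits, with limma adjusted p-values of up to 0.00936 and 0.0366. Without both arrays numbered 2, Ccl12, Ccl2 and Ccl7 differed by 3.10, 3.10 and 2.20 (adjusted p = 0.0016, 0.00767 and 0.019). Ccr2 differed by 0.30 to 0.54 with 1 array left out, lowest without control replicate 3, and by 0.51 without both arrays numbered 2, and it did not pass in any of these fits. Ccl8 lay between -0.06 and 0.13 and changed sign with the array left out.

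**Figure D4:**
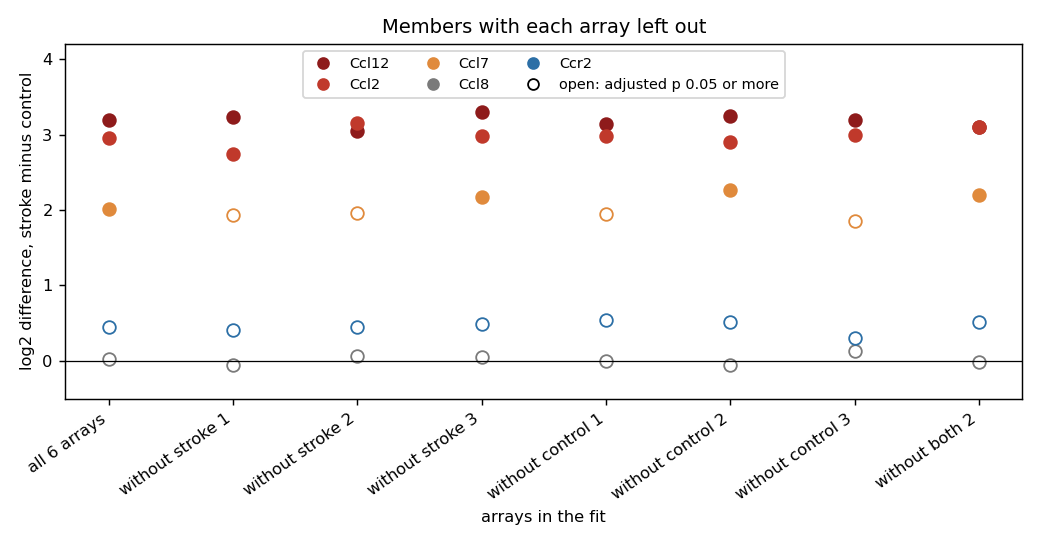
Log2 difference of stroke minus control for each member with all 6 arrays, with each array left out, and without both arrays numbered 2; filled points passed a limma adjusted p of 0.05. Ccl12 and Ccl2 stay between 2.74 and 3.30 and pass throughout, Ccl7 stays between 1.86 and 2.26 and passes in part, and Ccr2 and Ccl8 stay under 0.55 and do not pass.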

How the data were processed

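The deposited values are log2 signals, summarised and scaled by the authors, for 41345 transcript clusters on each of 6 arrays. Per the submitters' processing notes and the design text, Transcriptome Analysis Console 3.0 was used, and per the file headers the annotation was na36 on mm10. For the normalization and the authors' test, nothing is given in the sources used here. One deposited workbook holds the authors' log2 group averages, their signed fold change (a score, negative for genes with lower signal in stroke), p-values and false discovery rates.

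Symbols came from the workbook. Clusters absent from it (6873), without a symbol (2599) or with several (1902) were left out, and the brightest cluster of each symbol was kept, giving 29458 genes. The test of stroke over control was limma 3.58.1 (lmFit, eBayes; R 4.3.3), with Benjamini-Hochberg adjustment and a threshold of 0.05. The procedure was tested on simulated data. The members, the 16 gene lists (178 entries, 175 measured, 2 through an older symbol) and the tests were chosen with earlier results of these data known.

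The naming rule took the members, their chemokine neighbours within 500 kb, up to 4 past the threshold of each list (or its 2 brightest), the 3 genes most like each called member, Itgam and Rpl10a; some genes that this rule names are not reported here. Rpl10a was at 10.42 ± 0.06 in stroke and 10.34 ± 0.15 in control (log2 signal, SD, n = 3 each). As a check of pairing, deviations from the group means correlated at r = 0.299, 0.576 and 0.390 across genes between same-numbered arrays. All were above the limit of 0.1 set for treating the replicate numbers of the titles as pairs, although the labels name no shared batch. Between arrays of unlike number, r was 0.237 for control 3 with stroke 1 and 0.128 for control 1 with stroke 3, also above the limit. The other pairs of unlike number lay between -0.460 and -0.308. The limit thus did not single out same-numbered arrays, although each array had its highest r with the array of the same number. The fit without the replicate number as a block is the main one. Positions and promoters are RefSeq's (GRCm38.p6).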

Additional observations from a re-analysis of the deposited data

How the results depend on the processing

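With the replicate number as a block (the paired analysis), no call of a member or of another named gene was lost: Ccl12, Ccl2, Ccl7, Ccl8 and Ccr2 kept differences of 3.19, 2.96, 2.02, 0.02 and 0.45, and 156 genes were called against 125. Ccl12, Ccl2 and Ccl7 were higher in stroke under all 17 alternatives, from 3.05 to 3.30, 2.74 to 3.15 and 1.86 to 2.32. Without limma's moderation 0 genes passed (1697 at an unadjusted p under 0.05 in limma), and Ccl12, Ccl2 and Ccl7 had differences of 3.19, 2.96 and 2.02 at adjusted p-values of 0.181, 0.251 and 0.347, so their calls, and those of all other named genes, were lost where each gene was tested on its own spread alone. Array weights gave 217 genes, leaving out 1 array 25 to 74, and leaving out both arrays numbered 2 gave 70. Ccl7 ranged from 1.86 to 2.26 with 1 array left out. Ccl8 ranged from -0.0604 to 0.13 with 1 array left out, was -0.02 without both arrays numbered 2 and -0.0286 in the authors' deposited table, never past the threshold. Under the dim-gene filter Ccl8 and Ccr2 were removed. Among values near 0, the sign also turned for Ccr1l1 (-0.11 with array weights, -0.19 to 0.12 with 1 array left out, -0.21 without both arrays numbered 2, -0.15 in the authors' deposited table), Gnb1 (0.0320 with arrays centred on their median, 0.0034 with array weights, -0.0542 to 0.0164 with 1 array left out) and Rpl10a (-0.001 to 0.15 with 1 array left out). Changes of the ligands minus that of Ccr2 kept their signs under all 11 alternatives. Other settings ended calls of named genes near the threshold: Myd88 with quantile normalization (adjusted p = 0.0610), Stfa2l1 with trend and robust eBayes (0.0520), Ccl6 and Stfa2l1 with all clusters (0.0558 and 0.0567) and in the authors' deposited table (0.0588 and 0.0596). Of 22 other named genes past the threshold, 11 passed in all 6 fits without 1 array and 18 without both arrays numbered 2. With 1 array left out, the spread is pooled over both groups, so the spread used for the smaller group rests in part on the other group. No background measure was used, so the low signals of Ccl8, Ccr2 and the Ccl12 controls limit what can be said of levels. They also limit what can be said of the fold of Ccl12 and of the changes of Ccl8 and Ccr2. The same limit holds for other genes of low signal, among them Stfa2l1, Ccr1 and Il6.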
